A study of Homo sapiens with 13 samples.

Results

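The genes of vesicle coats, tethers and sorting complexes were followed across 5 miRNA pull-downs. The members are the probes whose annotated gene symbol starts with TMED, TRAPPC, VPS or SNX, or with SEC followed by a digit, together with COPA, COPE and the symbols starting with COPB, COPG or COPZ. The rule uses symbols only and no measured value. It found 120 probes for 96 genes, of 12007 probes for 8380 gene symbols in the table of normalized signals. Of these genes, 76 had 1 probe, 16 had 2 and 4 had 3.

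The cells were HEK293T, an established line from human embryonic kidney. They received 200 pmol of a synthetic biotinylated miRNA duplex, and the mRNA held by that duplex was captured on streptavidin beads from lysates made 24 h later. The groups were miR-17-5p (3 libraries), its isomiR miR-17-5p-iso (3), miR-27a (3), miR-23b (2) and miR-182-iso (2), where iso marks an isomiR, a variant with a shifted 5′ end. All groups share the cell line, the biotin label, the amount of duplex and the harvest time, so the duplex is the labelled difference between them. Each pull-down was set against the unrelated duplexes, giving every miRNA family the same weight. The canonical miR-17-5p and its isomiR count as 1 family and were left out of each other's comparator. No mock-transfected library is among the 13, so a higher value stands for stronger capture than the other duplexes gave, and a lower value can also arise from strong capture with another duplex. In a bulk lysate, more capture of an mRNA and more of that mRNA in the transfected cells cannot be told apart, nor can fewer cells and less RNA per cell. Each of the 5 comparisons uses libraries that serve as comparator in others, so their calls are not independent.

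Proteins leave the endoplasmic reticulum (ER) in vesicles with a COPII coat and return from the Golgi in vesicles with a COPI coat, and p24 (TMED) proteins are the abundant membrane receptors that cycle between both. TRAPP complexes tether arriving vesicles and activate Rab GTPases, and SNARE proteins drive fusion. In endosomes, retromer and sorting nexins return receptors to the Golgi or the surface, ESCRT complexes sort ubiquitinated cargo into inner vesicles, and HOPS, CORVET, GARP and EARP tether membranes before fusion. A miRNA in its silencing complex usually recognizes an mRNA through its seed, bases 2 to 8 from the 5′ end.

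The 5 transfected strands are shown because a shift of the 5′ end changes the seed, which is in capitals, and no seed is shared between any of them.
miR-17-5p: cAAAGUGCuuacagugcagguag
miR-17-5p-iso: uCAAAGUGcuuacagugcaggua
miR-27a: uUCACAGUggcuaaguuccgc
miR-23b: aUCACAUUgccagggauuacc
miR-182-iso: uGGCAAUGguagaacucacacu

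The strands are those given by the study and were compared with RefSeq mature miRNAs (GRCh38.p14). The miR-17-5p strand of 23 bases is identical to hsa-miR-17-5p at chr13:91350618-91350640 on the plus strand, and the strand of its isomiR, also 23 bases, starts 1 base upstream in the same hairpin. The miR-27a strand of 21 bases is identical to hsa-miR-27a-3p at chr19:13836447-13836467 on the minus strand. The miR-23b strand of 21 bases has the first base of hsa-miR-23b-3p (23 bases, chr9:95085265-95085287, plus strand) and ends earlier. The miR-182-iso strand of 22 bases starts 2 bases downstream of hsa-miR-182-5p (24 bases, chr7:129770447-129770470, minus strand). Transcripts were not searched for sites to these seeds, so no value here is tied to a site.

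Values are normalized signals on a scale that approaches log2 where probes are bright and is compressed where they are dim. Signals ran from 7.42 to 15.5, with library medians of 8.53 to 8.60 over all probes and of 8.74 to 8.98 over the members. Member means over the 13 libraries had a median of 8.94, against 8.59 for all probes, and 70 of the 120 members lay at or above the median probe. The SD between libraries of a group had a median of 0.222 for members and 0.209 for all probes. Of 6 markers for this line, 5 were in the table: VIM (9.73 to 13.11) and CDH2 (11.58 to 13.3) were well above the floor, whereas KRT8 (7.53 to 8.22), KRT18 (7.44 to 7.60) and NES (7.45 to 7.51) were near it. Of 14 markers of other cell types, COL1A1 was the 1 present, at 7.48 to 7.59. The 2 miR-182-iso libraries tended to correlate less with the rest. Over the members their correlation with the other 11 libraries was 0.667 to 0.877, against 0.768 to 0.983 among the others, replicate pairs included. The lowest values were with miR-27a (0.667 to 0.791). With miR-17-5p they were 0.781 to 0.877, close to the 0.768 to 0.913 between miR-17-5p and miR-27a. A member call described here is therefore also given without the 2 miR-182-iso libraries where it was then not made. Whether replicates are separate cultures is not stated, so p-values measure the spread between these libraries, and 2 or 3 arrays per group limit the precision.

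Members differed between pull-downs somewhat more often than other probes, and in some comparisons the shares were close. Calls are at an adjusted p under 0.05 over all 12007 probes, from 1 limma model of all libraries. With miR-17-5p, 12 members (10%) were called higher, against 5.34% of all probes, and 7 (5.83%) lower, against 4.51%. With miR-17-5p-iso, 10 members (8.33%) were called higher, against 5.11% of all probes, and 8 (6.67%) lower, against 2.74%. With miR-27a, 24 members (20.0%) were called higher and 27 (22.5%) lower, against 15.2% and 15.1% of all probes. With miR-23b, 6 members (5.0%) were called higher, against 5.91%, and 8 (6.67%) lower, against 3.0%. With miR-182-iso, 24 members (20.0%) were called higher and 22 (18.3%) lower, against 17.0% and 15.4% of all probes. The miR-17-5p members called lower, the miR-23b members called higher and the miR-182-iso members in either direction were thus close to the share of all probes. The median difference over the members lay between -0.12, with miR-23b, and 0.06, with miR-27a, and over all probes between -0.03 and -0.00, so the set as a whole was shifted little in any pull-down.

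**Figure D1:**
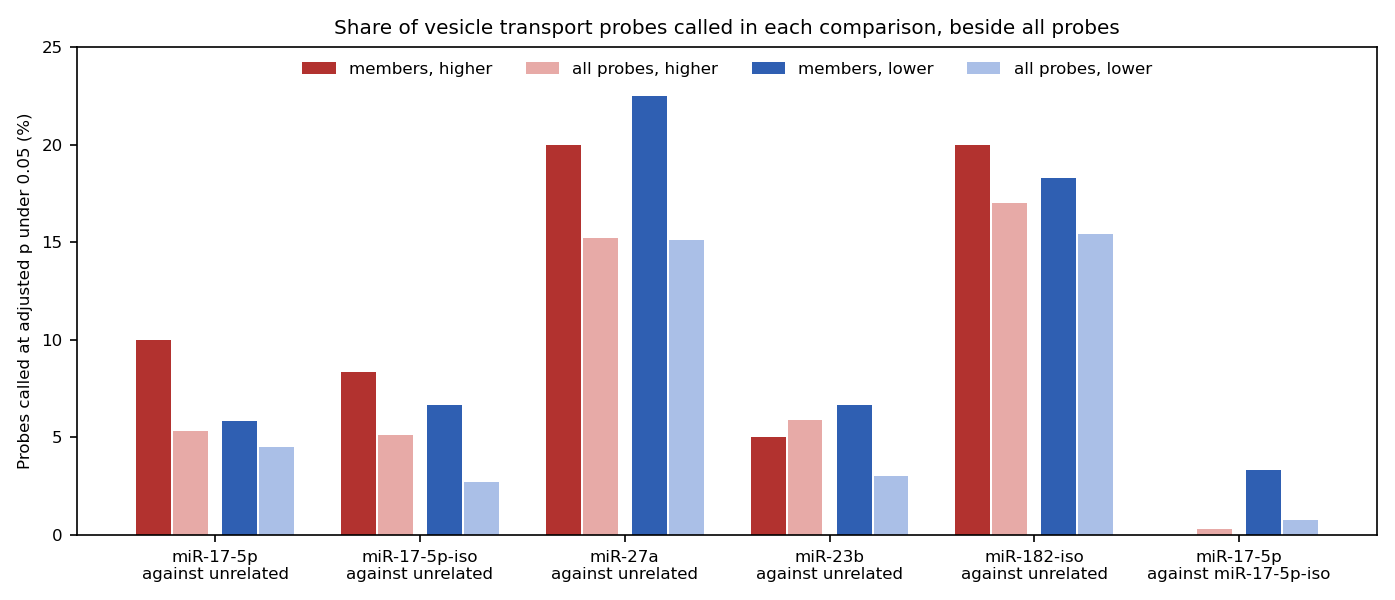
Share of the 120 member probes (dark bars) and of all 12007 probes (pale bars) called higher (red) or lower (blue) at an adjusted p under 0.05, in percent, for 5 pull-downs against the unrelated ones and for miR-17-5p against its isomiR. The tallest member bar is that of the 22.5% called lower with miR-27a, and the 20.0% called higher with miR-27a equals the share called higher with miR-182-iso.

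Single libraries bore on these counts, which are given here for the members only, without the share of all probes in the same fits. Without miR-17-5p replicate 3, the miR-17-5p calls numbered 6 higher and 3 lower, and without miR-23b replicate 1, 3 were called lower. The miR-17-5p-iso count of higher calls was 5 without that group's replicate 3 and 6 without miR-23b replicate 1. Its count of lower calls was 3 without either miR-23b replicate 1 or that group's replicate 2, 2 without miR-17-5p-iso replicate 3, 4 without miR-182-iso replicate 1, and 5 without miR-27a replicate 1, miR-27a replicate 3 or miR-23b replicate 2. For miR-27a, the count of lower calls was 17 without its replicate 1 or 2 and 13 without its replicate 3. Every miR-23b call was lost without either miR-23b library, and its higher calls numbered 3 without miR-182-iso replicate 2. Its lower calls numbered 5 without miR-17-5p replicate 3, 4 without miR-17-5p-iso replicate 3 or miR-182-iso replicate 2, and 3 without miR-27a replicate 2. For miR-182-iso, 9 members were called higher and 9 lower without its replicate 2. In the following, a call is said to hold when it was made in all 13 fits that each leave out 1 library.

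A moderated F test for any difference among the 5 pull-downs called 66 members (55.0%), against 42.2% of all probes. Among probes at or above the median level, where calls are more frequent, it called 47 of 70 members (67.1%) and 59.0% of all such probes. Without both miR-182-iso libraries it called 42 members, against 21.1% of all probes. Over the 5 comparisons, 47 members were called in none, 23 in 1, 32 in 2, 13 in 3, 3 in 4 and 2 in all 5. The 2 called in all 5, SEC61A2 and TMED9, were higher with miR-182-iso and lower with each other duplex. The highest group mean of a member was most often that of miR-182-iso (39 members) or miR-27a (36), followed by miR-17-5p (21), miR-23b (14) and miR-17-5p-iso (10). The lowest was most often that of miR-23b (33), miR-182-iso (32) or miR-27a (28).

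**Figure D2:**
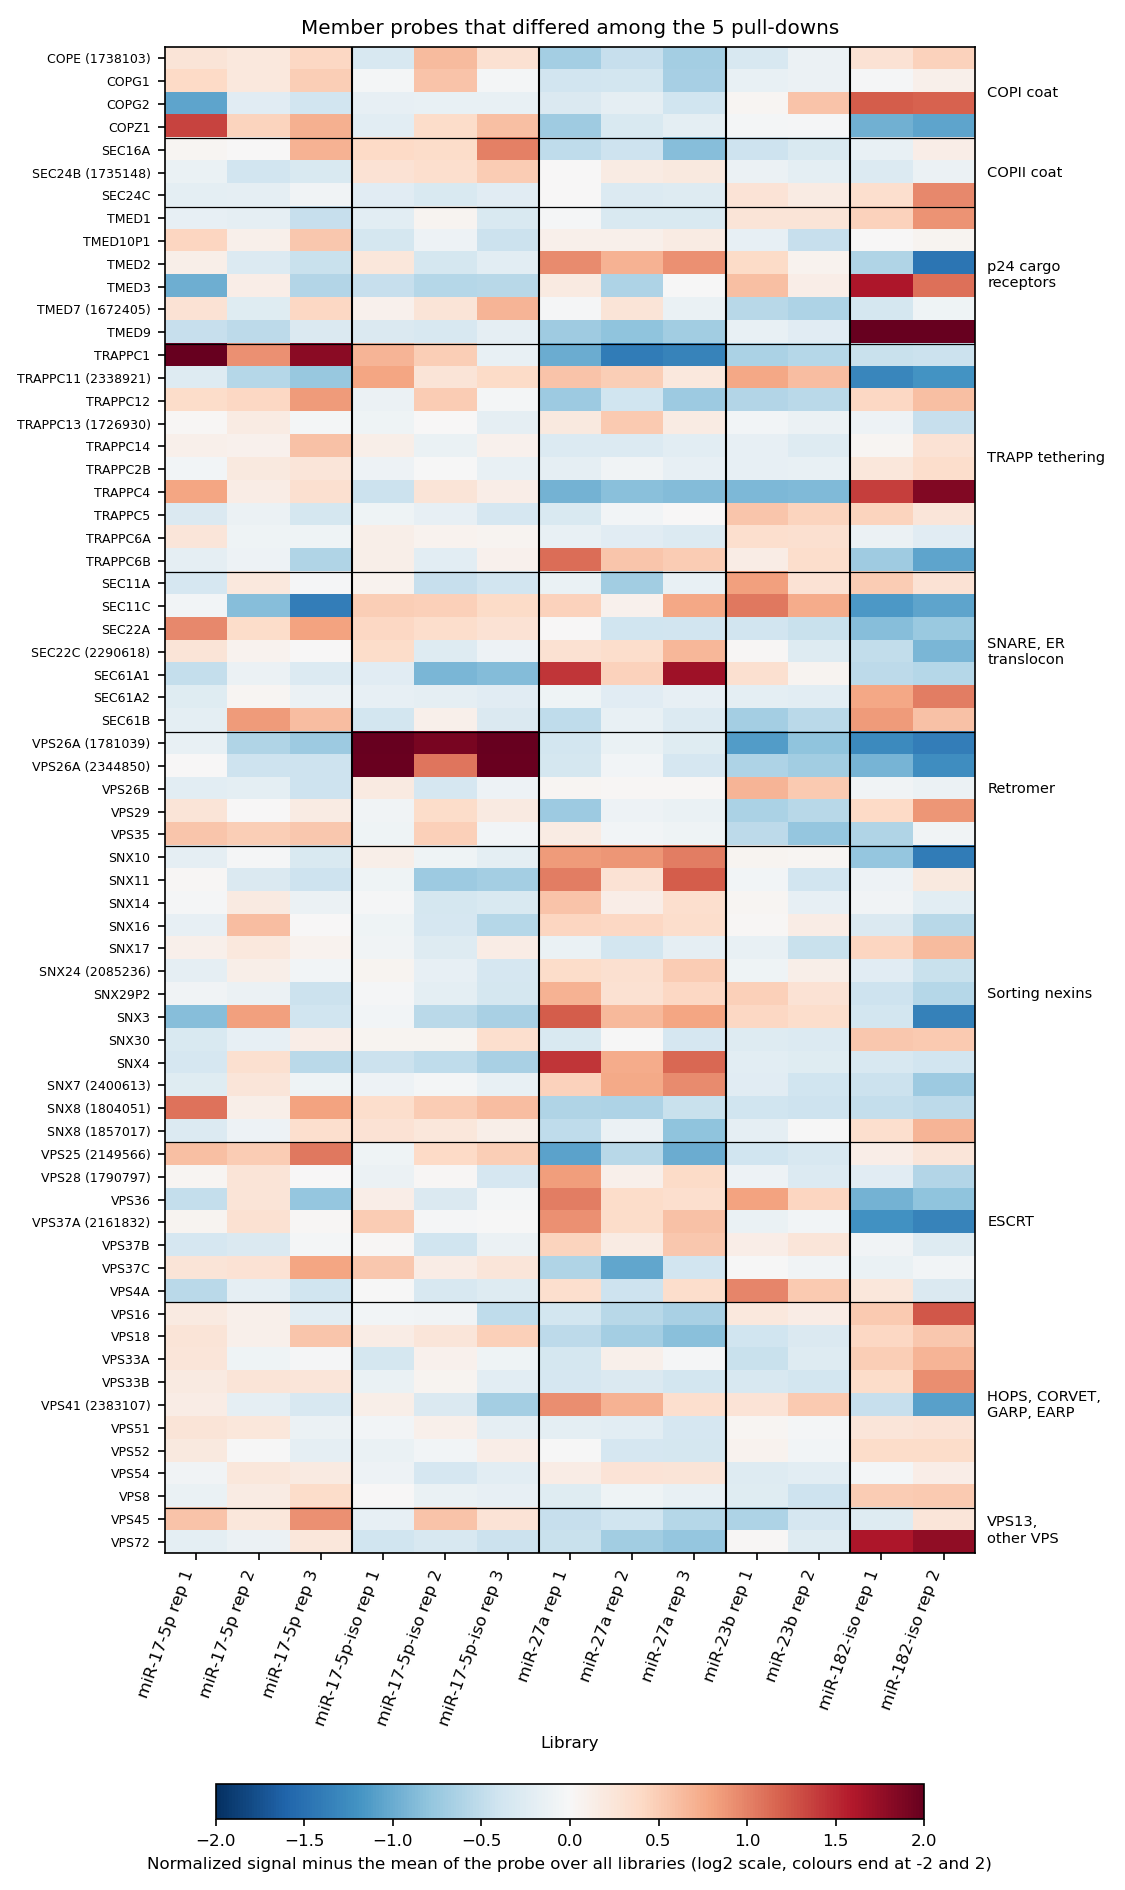
Signal of the 66 members that differed among the 5 pull-downs, in each of the 13 libraries, minus the probe's mean over all libraries (log2 scale, colours end at -2 and 2), grouped by role. The miR-182-iso libraries and the miR-27a libraries hold most of the deep colours, and VPS26A stands out in the 3 miR-17-5p-iso libraries.

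The spread of group means was widest for VPS26A, whose probe ILMN_1781039 spanned 3.59 between its highest and its lowest group. It was followed by TMED9 (3.07), TRAPPC1 (2.84), the other VPS26A probe (2.76), TRAPPC4 (2.50), VPS72 (2.34), SEC11C (2.01), SNX10 (2.00), TRAPPC11 (1.94) and VPS37A (1.91). Each of the 5 duplexes gave the highest group mean of at least 1 of these 10 probes.

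**Figure D3:**
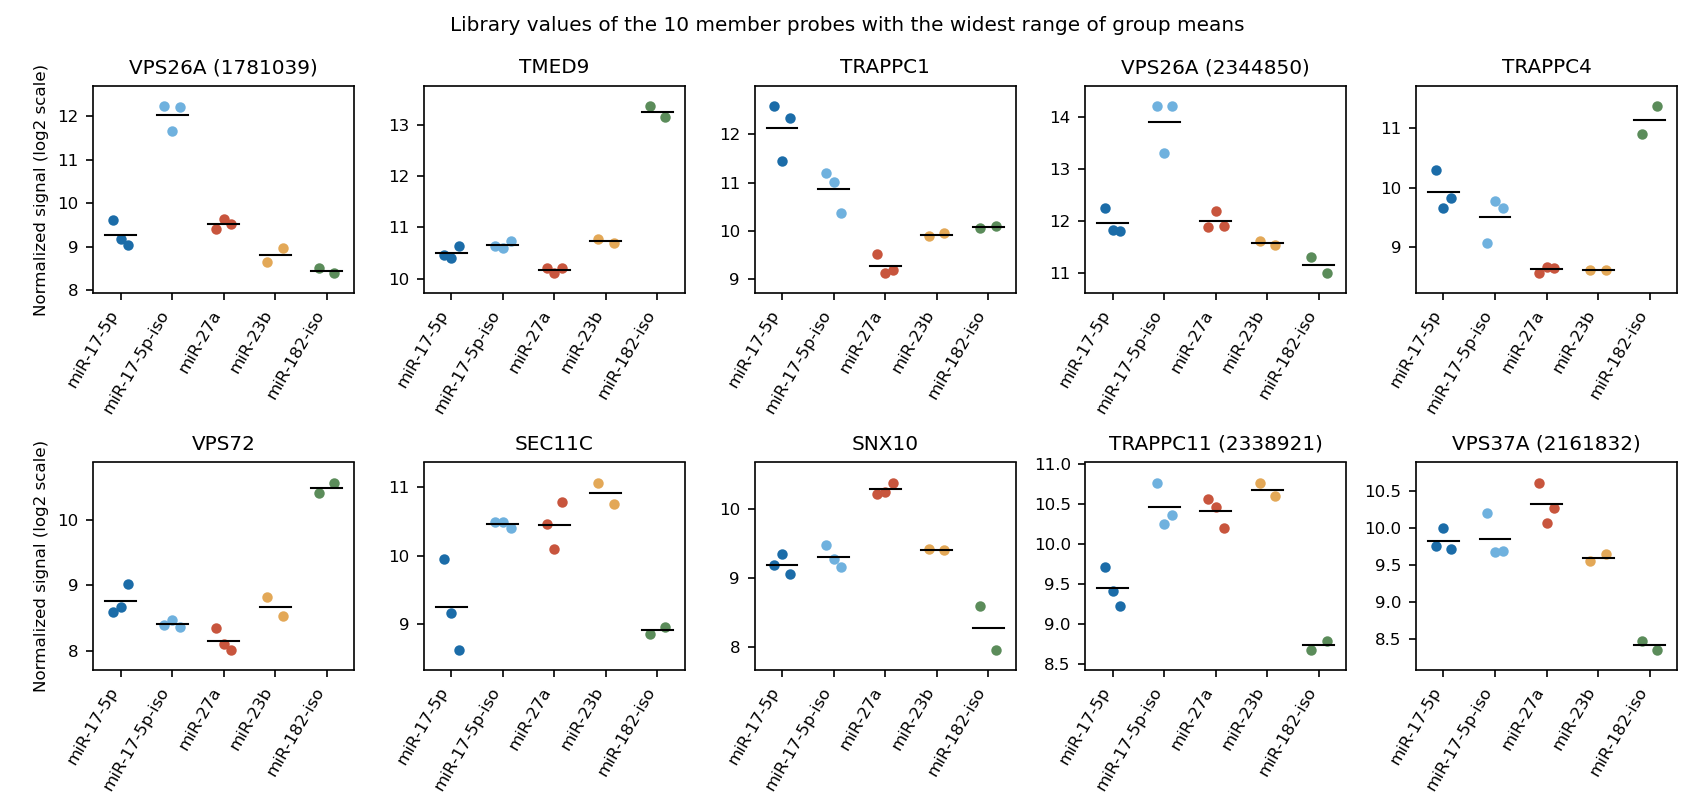
Normalized signal (log2 scale) in each library, 1 point per library and a line at each group mean, for the 10 member probes with the widest range of group means. The 3 miR-17-5p-iso libraries lie between 11.67 and 12.24 for VPS26A probe ILMN_1781039, above every other library, and the 2 miR-182-iso libraries lie at 13.36 and 13.14 for TMED9.

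By role, the counts of calls can be read beside the shares of all probes, with no test between roles, and the groups given here were picked after their counts were seen. With miR-27a, where 15.2% of all probes were called higher and 15.1% lower, the sorting nexins had 10 of 22 probes called higher and 2 lower, and the COPI coat had 5 of 8 lower and 0 higher. The HOPS, CORVET, GARP and EARP probes had 5 of 13 lower and 2 higher with the same duplex. With miR-182-iso, 17.0% of all probes were called higher and 15.4% lower, and the same tethers had 7 of 13 higher and 1 lower. The group of SNARE and translocon probes had 6 of 14 lower and 2 higher with that duplex. This group also holds signal peptidase and SEC14L1 probes, and its lower calls were those of SEC11C, SEC22A, SEC61A1 and the 3 SEC22C probes. In retromer 3 of 6 probes were called lower and 1 higher with miR-23b. Several of these counts share libraries, and a gene with several probes is counted once per probe.

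**Figure D4:**
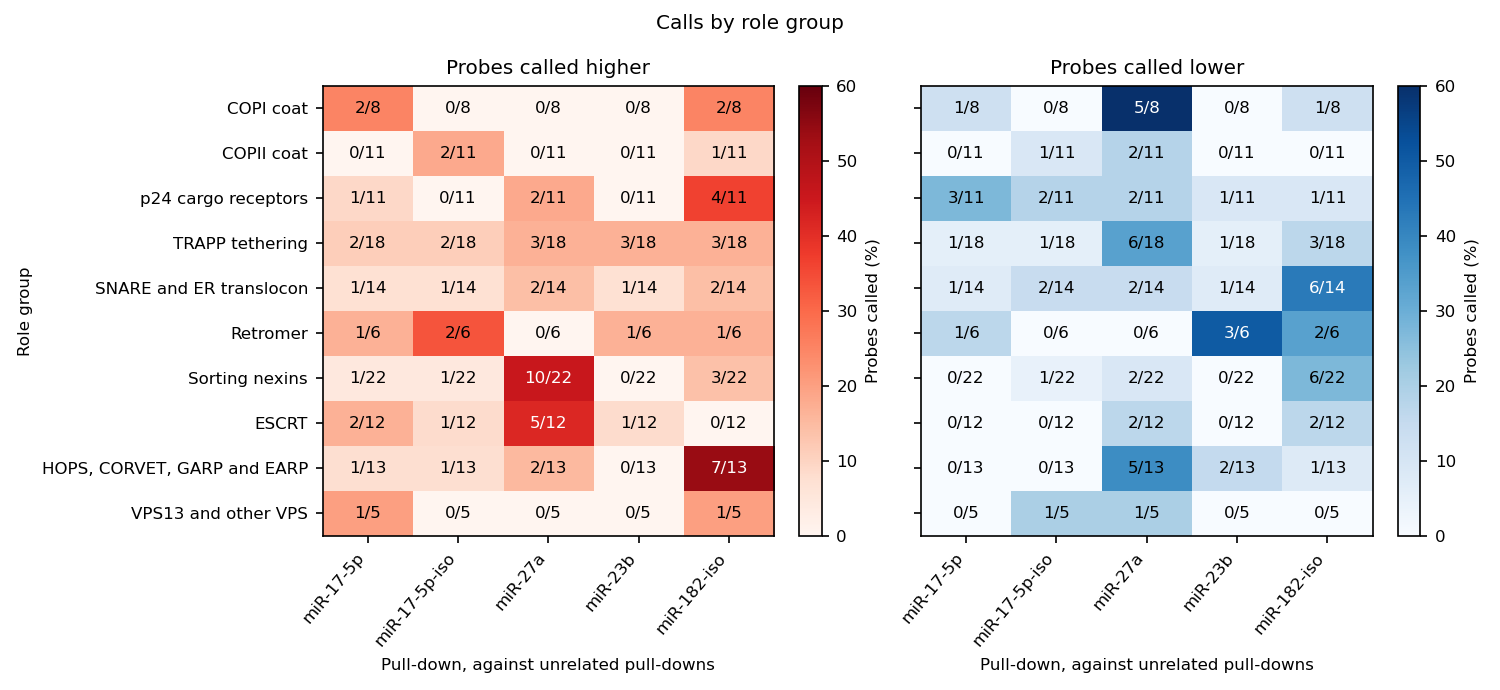
Member probes called higher (left, red) and lower (right, blue) in each pull-down against the unrelated ones, by role, written as called of measured and coloured by percent. The fullest cells are 5/8 COPI probes lower with miR-27a, 7/13 tether probes of HOPS, CORVET, GARP and EARP higher with miR-182-iso, 3/6 retromer probes lower with miR-23b and 10/22 sorting nexins higher with miR-27a.

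Of the 11 COPII probes (8 genes), 2 were called higher and 1 lower with miR-17-5p-iso, against 5.11% and 2.74% of all probes. With miR-27a 2 were called lower, against 15.1% of all probes, and with miR-182-iso 1 higher, against 17.0%. SEC16A, the scaffold of ER exit sites, had signals of 10.10, 10.07 and 10.72 with miR-17-5p-iso, against 8.86 to 9.84 in the unrelated libraries. All 3 libraries were above every unrelated one, and the difference was 0.91 (SE 0.19, adjusted p = 0.0172). Without miR-17-5p-iso replicate 3 it was 0.70 and did not pass (adjusted p = 0.0893). With miR-27a, SEC16A had 9.20, 9.29 and 8.86, a difference of -0.61 (adjusted p = 0.0349) that was lost in 6 of the 13 fits and without the miR-182-iso pair (-0.62, adjusted p = 0.0727).

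SEC24 proteins form the cargo-binding layer of the COPII coat. SEC24C had 10.96 and 11.59 with miR-182-iso, against 10.33 to 10.91 in the other libraries. The 2 miR-182-iso libraries were the highest, though the first only by a small margin, and the difference was 0.70 (SE 0.14, adjusted p = 0.00448). Without miR-182-iso replicate 2 it was 0.38 (adjusted p = 0.0834). SEC24C was also called lower with miR-17-5p-iso (-0.48) and with miR-27a (-0.40), and neither call was made once the pair of miR-182-iso libraries was left out (-0.27, adjusted p = 0.0678, and -0.19, adjusted p = 0.152). The SEC23A, SEC23B, SEC23IP, SEC24A and SEC24D probes, of which SEC23 is the inner-coat partner of SEC24, were called in no comparison, with group means spanning 0.21 to 0.82.

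The p24 receptors held the member called with the smallest p, TMED9. It had 13.36 and 13.14 with miR-182-iso, against 10.11 to 10.77 in the other 11 libraries, so that no library of another group came near, and the difference of 2.75 (SE 0.08, adjusted p = 1.72e-07) held. Its lower calls with the other duplexes rested on those 2 libraries to differing degrees. With miR-27a the difference was -1.35 with them in the comparator and -0.48 without (adjusted p = 0.00563). With miR-17-5p it was -0.89 with them and 0.04 without (adjusted p = 0.757), and with miR-17-5p-iso -0.73 and 0.20 (adjusted p = 0.116). With miR-23b it turned to 0.36 without them (adjusted p = 0.0406), where it had been -0.60.

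TMED2 and TMED3 moved in different ways from each other. TMED2 had 12.75, 12.49 and 12.71 with miR-27a, against 10.33 to 12.18 in the other libraries, and every miR-27a library was above all of them. The difference was 1.17 (SE 0.20, adjusted p = 0.00286) and 0.82 without the miR-182-iso libraries (adjusted p = 0.015). With miR-182-iso TMED2 had 11.19 and 10.33, below all other libraries (11.36 to 12.75), a difference of -1.35 (SE 0.23, adjusted p = 0.00197). TMED3 was high where TMED2 was low: it had 13.31 and 12.80 with miR-182-iso, against 10.72 to 12.30 elsewhere, a difference of 1.46 (SE 0.28, adjusted p = 0.0035). Both miR-182-iso calls of TMED2 and TMED3 held. TMED3 was called lower with the canonical miR-17-5p (-1.01) and the isomiR of it (-1.06), and each call was lost in 5 of the 13 fits. Neither was made once the miR-182-iso pair was left out (-0.59, adjusted p = 0.156, and -0.64, adjusted p = 0.145).

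Of the other p24 genes, TMED1 had 9.41 and 9.84 with miR-182-iso, above the 8.49 to 9.21 of the other libraries. Its difference was 0.73 (adjusted p = 0.00396), and 0.51 without miR-182-iso replicate 2 (adjusted p = 0.0974). It was called lower with miR-17-5p (-0.51) in a call lost in 5 fits and without both miR-182-iso libraries (-0.29, adjusted p = 0.125). TMED10 had 9.32 and 9.84 with miR-182-iso, against 7.56 to 9.38 elsewhere. These ranges overlap, and the call (1.35, SE 0.39, adjusted p = 0.025) was lost without either miR-182-iso library (1.10 to 1.61, adjusted p 0.0667 to 0.252). The TMED10P1 probe, named for a near-identical pseudogene of TMED10, had 10.66, 10.34 and 10.77 with miR-17-5p and was called higher there by 0.41, a call lost in 10 of the 13 fits. Which copy each of these 2 probes reads is uncertain. TMED7 was called higher with miR-27a by 1 of its 2 probes (0.58, lost in 4 fits, and 0.53 without the miR-182-iso pair, adjusted p = 0.074), the other having 0.22. TMED4 and TMED5 were called in no comparison.

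The COPI coat was marked by lower signals with miR-27a, in probes for COPE, COPG1, COPG2 and COPA. COPE, the epsilon subunit, had 8.47, 8.68 and 8.46 with miR-27a by its brighter probe, against 8.82 to 9.78 in all other libraries. The groups did not overlap, and the difference of -0.74 (SE 0.17, adjusted p = 0.00984) held, while without both miR-182-iso libraries it was -0.62 (adjusted p = 0.054). The dimmer COPE probe had 7.58, 7.66 and 7.68 and a difference of -0.48, which was lost in 10 of the 13 fits. With miR-182-iso the brighter probe was called higher by 0.58, also lost in 10 fits, and the dimmer had 0.40. COPG1, a gamma subunit, had 8.33, 8.34 and 8.05 with miR-27a, below the 8.57 to 9.28 of the others, with a difference of -0.53 (adjusted p = 0.0162). It missed the threshold without miR-27a replicate 3 (-0.44, adjusted p = 0.0738). COPA, the alpha subunit, was lower by 0.59 in a call lost in 6 fits. Of the 5 COPI calls, the COPG1 call was the 1 made without both miR-182-iso libraries (-0.54, adjusted p = 0.0426).

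The 2 gamma subunits had different highest groups. COPG2 had 10.86 and 10.82 with miR-182-iso, against 8.58 to 10.21 elsewhere, and its difference of 1.31 (SE 0.19, adjusted p = 0.00106) held. With miR-17-5p, COPG2 had 8.58, 9.41 and 9.26 and was lower by 0.96 on the log2 scale (difference -0.96, adjusted p = 0.00816), against -0.56 without the miR-182-iso libraries (adjusted p = 0.0753). COPG1 was called higher with miR-17-5p, at 9.12, 8.92 and 9.21 (difference 0.56, adjusted p = 0.0329), in a call lost in 7 of the 13 fits.

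COPZ1, the zeta subunit, had 11.17, 10.27 and 10.53 with miR-17-5p, against 8.76 to 9.80 in the unrelated libraries. Every miR-17-5p library lay above these, and the difference of 1.32 (SE 0.22, adjusted p = 0.00613) held and was 1.05 without the miR-182-iso libraries (adjusted p = 0.0213). With miR-182-iso it had 8.86 and 8.76, the lowest of all libraries, a difference of -1.05 (adjusted p = 0.01) that was lost without either of them (adjusted p 0.054 to 0.114). The beta subunits COPB1 and COPB2 were called in no comparison. COPB1 had 9.39 and 9.50 with miR-23b, against 9.70 to 10.75 elsewhere, and the difference of -0.85 did not pass (adjusted p = 0.058).

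Among the TRAPP subunits, TRAPPC1 and TRAPPC4, both in the core shared by the mammalian TRAPP complexes, had the widest ranges. TRAPPC1 had 12.58, 11.44 and 12.33 with miR-17-5p and 11.20, 11.01 and 10.38 with miR-17-5p-iso, against 9.13 to 10.10 in the unrelated libraries. All 6 libraries of the family were above all 7 others, with miR-17-5p above its isomiR in every library. The miR-17-5p difference was 2.36 (SE 0.24, adjusted p = 0.000715) and held, and the miR-17-5p-iso difference was 1.10 (SE 0.24, adjusted p = 0.0209), and it was lost without miR-23b replicate 1 or replicate 1 or 2 of its own group (adjusted p 0.0539 to 0.0818). The difference of miR-17-5p from its isomiR, 1.25 (SE 0.28), did not pass (adjusted p = 0.0786). With miR-27a, TRAPPC1 had 9.53, 9.13 and 9.19, below every other library, a difference of -1.22 (adjusted p = 0.00515) and of -1.43 without the miR-182-iso libraries (adjusted p = 0.0113).

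TRAPPC4 had 10.89 and 11.36 with miR-182-iso, against 8.57 to 10.30 in the others. Both libraries were the highest, and the difference of 2.13 (SE 0.20, adjusted p = 0.000114) held. TRAPPC4 was low with miR-27a, at 8.57, 8.68 and 8.65, and with miR-23b, at 8.62 and 8.63, groups that overlap each other. The differences were -1.19 (adjusted p = 0.00167) and -1.20 (adjusted p = 0.00954), and without the miR-182-iso libraries -0.53 (adjusted p = 0.0729) and -0.55 (adjusted p = 0.137). TRAPPC12, found in the TRAPPIII complex, had 8.75, 8.79 and 9.23 with miR-17-5p and was called higher by 0.77 (adjusted p = 0.0147), except without miR-17-5p replicate 3 (0.61, adjusted p = 0.0777). It was also higher with miR-182-iso, at 8.79 and 8.98 (0.78, adjusted p = 0.00823), except without miR-182-iso replicate 2 (adjusted p = 0.121). With miR-27a it had 7.65, 7.99 and 7.66 and was lower (-0.71, adjusted p = 0.0084), though not called without the miR-182-iso pair (-0.50, adjusted p = 0.0773).

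TRAPPC6A and TRAPPC6B, paralogous core subunits, had their highest means in different groups. TRAPPC6B had 10.49, 9.93 and 9.88 with miR-27a, against 8.32 to 9.73 elsewhere, a difference of 0.98 (SE 0.16, adjusted p = 0.00267), and of 0.67 without the miR-182-iso libraries (adjusted p = 0.0322). With miR-182-iso it had 8.67 and 8.32, the lowest values of all, a difference of -1.16 (adjusted p = 0.00159). Both calls held. TRAPPC6A, a dim probe, had 8.06 and 8.04 with miR-23b, against 7.45 to 7.97 elsewhere, a difference of 0.43 (adjusted p = 0.0197) lost without either miR-23b library (adjusted p 0.131 to 0.212).

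TRAPPC5, another core subunit, had 10.35 and 10.25 with miR-23b, the lower of them level with the highest other library, miR-182-iso replicate 1 at 10.25. The difference was 0.50 (adjusted p = 0.023) and was lost without either miR-23b library or without miR-182-iso replicate 2 (adjusted p 0.0514 to 0.257). It was called lower with miR-17-5p (-0.49), miR-27a (-0.33) and miR-17-5p-iso (-0.44). The miR-17-5p call was lost without miR-17-5p replicate 3 (adjusted p = 0.0661), and the others in 4 fits each. Without the miR-182-iso pair the miR-27a call was not made (-0.26, adjusted p = 0.11). TRAPPC2B had 7.83 and 7.97 with miR-182-iso, close to the floor, and was called higher by 0.38, except without miR-182-iso replicate 2 (adjusted p = 0.148). TRAPPC2B is a near-identical copy of TRAPPC2, whose own probe was called in no comparison, and the signals of the 2 may not be separable. TRAPPC3, TRAPPC8 and TRAPPC14 were called in no comparison.

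The SEC symbols also take in genes of protein entry into the ER, which are not part of a vesicle coat. SEC61A1 and SEC61A2 encode alternative alpha subunits of the translocon channel, and their highest signals fell in different groups. SEC61A1 had 12.86, 11.88 and 13.12 with miR-27a, against 10.51 to 11.75 elsewhere, with all 3 libraries above the rest and a difference of 1.48 (SE 0.24, adjusted p = 0.00273) that held. It was 1.34 without the miR-182-iso libraries (adjusted p = 0.0149). The lower calls of SEC61A1 with miR-17-5p-iso (-0.95) and miR-182-iso (-0.85) were lost in 11 and 7 of the 13 fits.

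SEC61A2 had 8.50 and 8.75 with miR-182-iso, against 7.48 to 7.76 in the 11 other libraries, which are near the floor of the table. The difference of 1.08 (SE 0.09, adjusted p = 6.79e-05) held. Its 4 lower calls, of -0.29 to -0.40, were not made without the 2 miR-182-iso libraries, where the differences were 0.08, -0.01, 0.01 and -0.05 (adjusted p 0.528 to 0.945). SEC61B, the beta subunit, had 12.55 and 12.28 with miR-182-iso, inside the 11.02 to 12.56 of the others, and its call (0.98, adjusted p = 0.0106) was lost without either library (adjusted p 0.0681 to 0.0972). SEC62 and SEC63, which assist the channel, were called in no comparison.

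SEC11C, a catalytic subunit of the signal peptidase, had 11.07 and 10.76 with miR-23b, against 8.63 to 10.79 elsewhere. The ranges overlap by a single miR-27a library, and the call (1.18, SE 0.27, adjusted p = 0.0295) was lost without either miR-23b or either miR-182-iso library (adjusted p 0.0524 to 0.30), and the difference was 0.76 without both of the miR-182-iso ones (adjusted p = 0.167). With miR-182-iso it had 8.86 and 8.96, among the lowest libraries with those of miR-17-5p, a difference of -1.50 (adjusted p = 0.00291) that held. The miR-17-5p libraries spread widely for this gene, at 9.95, 9.16 and 8.63, all below the 10.50, 10.49 and 10.40 of miR-17-5p-iso, and the difference of -1.22 did not pass (adjusted p = 0.0875). SEC11A, the other catalytic subunit, was called lower with miR-27a (-0.59) in a call lost in 6 fits and without the miR-182-iso pair (-0.53, adjusted p = 0.108).

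SEC22B is a SNARE of ER to Golgi transport and SEC22A and SEC22C are its relatives. SEC22A had 10.05, 9.46 and 9.90 with miR-17-5p and 9.50, 9.45 and 9.38 with miR-17-5p-iso, against 8.24 to 9.10 in the unrelated libraries. All 6 libraries were above all 7 others. The differences were 1.20 (SE 0.13, adjusted p = 0.000993) and 0.84 (SE 0.13, adjusted p = 0.00379), and both held. With miR-182-iso SEC22A had 8.24 and 8.35, the lowest values, a difference of -0.75 (adjusted p = 0.00417) that held as well. SEC22B was called in no comparison, with group means spanning 0.63.

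In retromer, VPS26A, a subunit of the cargo-selective trimer, had the largest member difference of all comparisons, by 2 probes. Probe ILMN_1781039 had 12.24, 11.67 and 12.21 with miR-17-5p-iso, against 8.39 to 9.63 in the 7 unrelated libraries. Probe ILMN_2344850 had 14.22, 13.31 and 14.22, against 11.00 to 12.19. Both probes put every isomiR library above every other library of the series, the canonical miR-17-5p included. The differences were 3.12 (SE 0.16, adjusted p = 1.54e-05) and 2.34 (SE 0.20, adjusted p = 0.000165), held for both probes, and were 2.88 and 2.12 without the miR-182-iso libraries.

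The canonical duplex did not give this pattern. With miR-17-5p, the VPS26A probes had 9.62, 9.17 and 9.04, and 12.25, 11.83 and 11.82, within or next to the range of the unrelated libraries, and differed from these by 0.35 (adjusted p = 0.198) and 0.39 (adjusted p = 0.263). In the direct comparison of miR-17-5p with miR-17-5p-iso, the differences were -2.76 (SE 0.19, adjusted p = 0.000205) and -1.95 (SE 0.23, adjusted p = 0.00668), and both held. VPS26A was lowest with miR-182-iso, at 8.50 and 8.39 by the first probe and 11.31 and 11.00 by the second. Those calls were -1.21 (adjusted p = 0.00108), which held, and -1.02 (adjusted p = 0.00717), which was lost without miR-182-iso replicate 2 (adjusted p = 0.119).

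The other retromer genes had other patterns. VPS26B, the paralog of VPS26A, had 9.03 and 8.87 with miR-23b, against 7.94 to 8.53 elsewhere, a difference of 0.68 (SE 0.12, adjusted p = 0.0106) that was lost without either miR-23b library (adjusted p 0.0722 to 0.172). VPS35, the subunit to which the others bind, had 11.02, 10.95 and 11.00 with miR-17-5p, against 9.69 to 10.63 in the unrelated libraries. The 3 libraries agreed closely and lay above all of these, and the difference of 0.85 (SE 0.15, adjusted p = 0.00707) held. VPS29, the remaining subunit, had 10.47 and 10.96 with miR-182-iso, against 9.35 to 10.45 elsewhere (0.90, adjusted p = 0.00533), and without miR-182-iso replicate 2 the difference was 0.65 (adjusted p = 0.12). VPS29 (-0.75), VPS35 (-0.64) and 1 VPS26A probe (-0.73) were called lower with miR-23b, in calls lost in 7, 8 and 5 of the 13 fits. The VPS29 call was also not made without the miR-182-iso pair (-0.51, adjusted p = 0.129). VPS26C, which belongs to the related retriever complex, was called in no comparison.

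The sorting nexins, proteins that bind endosomal phosphoinositides through a PX domain, had more probes called higher with miR-27a, 10 of 22, than with any other duplex. SNX4, which acts in recycling from endosomes, had 11.44, 10.74 and 11.15 with miR-27a, against 9.36 to 10.33 elsewhere, a difference of 1.42 (SE 0.18, adjusted p = 0.000983). SNX10 had 10.22, 10.24 and 10.38, against 7.96 to 9.48, a difference of 1.30 (SE 0.13, adjusted p = 0.000317). SNX7, by its brighter probe, had 9.27, 9.57 and 9.76, against 8.08 to 9.05, a difference of 1.04 (SE 0.13, adjusted p = 0.000788). The dimmer SNX7 probe had 0.46 with miR-27a and was not called (adjusted p = 0.143). For the SNX4, SNX10 and brighter SNX7 probes every miR-27a library was above every other library. SNX11 did the same with 10.93, 10.19 and 11.11, against 9.18 to 10.09, and a difference of 1.02 (SE 0.21, adjusted p = 0.00662). All 4 calls held, and all were made without the miR-182-iso libraries, at 1.40, 0.95, 0.91 and 1.14.

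SNX3, a brighter member that works with retromer, had 14.02, 13.46 and 13.60 with miR-27a, against 11.46 to 13.64 elsewhere. The ranges overlap at miR-17-5p replicate 2, and the call (1.13, SE 0.33, adjusted p = 0.0288) was lost in 6 of the 13 fits. SNX29P2, named as a pseudogene, had 8.84, 8.44 and 8.55 with miR-27a (0.57, adjusted p = 0.00599). SNX14 (0.45), SNX16 (0.54) and both SNX24 probes (0.53 and 0.21) made up the rest of the 10 higher calls. Without the miR-182-iso libraries, SNX29P2, SNX3, SNX14, SNX16 and the dimmer SNX24 probe were not called (adjusted p 0.0528 to 0.157). The SNX14 call also ended without miR-27a replicate 1 (adjusted p = 0.0856), that of SNX16 in 5 fits and that of the dimmer SNX24 probe in 10. SNX17 (-0.31, lost in 9 fits) and 1 SNX8 probe (-0.64, lost without miR-27a replicate 1 or 3, adjusted p 0.0578 to 0.073) were lower with miR-27a, and without the miR-182-iso pair they had -0.09 (adjusted p = 0.628) and -0.48 (adjusted p = 0.0956). SNX4 was also called lower with miR-17-5p-iso (-0.71), in a call lost in 10 fits, though made at -0.97 without both miR-182-iso libraries (adjusted p = 0.0224).

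With miR-182-iso, 3 of the 22 sorting nexin probes were called higher and 6 lower, against 17.0% and 15.4% of all probes. SNX10 had 8.59 and 7.96 with miR-182-iso, against 9.05 to 10.38 elsewhere, a difference of -1.37 (SE 0.15, adjusted p = 0.000257) that held. SNX3 (-1.19), SNX29P2 (-0.71), SNX7 (-0.70), SNX16 (-0.55) and SNX24 (-0.44) were lower too, each losing its call without miR-182-iso replicate 2 (adjusted p 0.068 to 0.409). The other probes of SNX7 and SNX24 had 0.07 and -0.16 with miR-182-iso and were not called. SNX8 probe ILMN_1857017 was called higher by 0.67, whereas the other SNX8 probe had -0.37 and was not called. SNX30 had 9.01 and 9.00, against 8.13 to 8.81, and its difference of 0.69 (adjusted p = 0.00325) held. SNX17, which sorts receptors for recycling, had 10.22 and 10.41, above every other library (0.69, adjusted p = 0.00222), and missed the threshold without miR-182-iso replicate 2 (adjusted p = 0.0546). SNX2, SNX5, SNX6, SNX13, SNX22 and SNX27 were called in no comparison, among them retromer-linked SNX27, whose group means spanned 0.19.

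SNX8 was the sorting nexin called higher with the miR-17-5p family. Probe ILMN_1804051 had 9.45, 8.49 and 9.17 with miR-17-5p and 8.72, 8.88 and 8.99 with miR-17-5p-iso, against 7.75 to 7.97 in the unrelated libraries. All 6 were above all 7, with differences of 1.16 (SE 0.17, adjusted p = 0.00313) and 0.98 (SE 0.17, adjusted p = 0.00606) that both held. The second SNX8 probe, ILMN_1857017, had 8.23, 8.40 and 8.85 with miR-17-5p and 8.80, 8.73 and 8.63 with miR-17-5p-iso, overlapping the 7.71 to 9.18 of the unrelated libraries, with differences of 0.01 and 0.24 that did not pass.

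Of the 12 ESCRT probes, 5 were called higher and 2 lower with miR-27a, against 15.2% and 15.1% of all probes. VPS37A, an ESCRT-I subunit, had 10.61, 10.06 and 10.27 with miR-27a by its brighter probe, against 8.35 to 10.20 elsewhere, and overlapped them at 1 miR-17-5p-iso library. The difference of 1.04 (SE 0.14, adjusted p = 0.00133) held and was 0.60 without the miR-182-iso libraries (adjusted p = 0.0367). With miR-182-iso the same probe had 8.47 and 8.35, far below the 9.55 to 10.61 of the others, a difference of -1.51 (SE 0.16, adjusted p = 0.000269) that held. VPS37C, a paralog, ran the other way with miR-27a: it had 10.34, 9.91 and 10.57, below the 10.82 to 11.74 of all other libraries (-0.75, adjusted p = 0.00733), and held. With miR-17-5p VPS37C had 11.21, 11.24 and 11.74 (0.72, adjusted p = 0.0217), a call lost without miR-17-5p replicate 3, miR-23b replicate 2 or miR-182-iso replicate 1 (adjusted p 0.0508 to 0.108). VPS37B was called higher with miR-27a (0.44), except without miR-27a replicate 1 or 3 (adjusted p 0.073 to 0.083) or without the miR-182-iso pair (0.38, adjusted p = 0.0704).

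VPS25 and VPS36 are both subunits of ESCRT-II. VPS25, by probe ILMN_2149566, had 9.50, 9.42 and 9.96 with miR-17-5p, against 7.83 to 9.15 in the unrelated libraries. Every miR-17-5p library was above these, and the difference of 1.07 (SE 0.17, adjusted p = 0.00412) held. With miR-27a it had 7.83, 8.35 and 7.92, below every other library (8.51 to 9.96), a difference of -0.98 (adjusted p = 0.00275) that held. The same probe was called higher with miR-17-5p-iso (0.61), in a call lost in 9 fits. The second VPS25 probe, ILMN_1767691, had 0.95 with miR-17-5p (adjusted p = 0.087), 0.49 with miR-17-5p-iso (adjusted p = 0.386) and -0.71 with miR-27a (adjusted p = 0.105), and was called in no comparison. VPS36 had 11.01, 10.35 and 10.32 with miR-27a (0.72, adjusted p = 0.035, lost in 6 fits and 0.36 without the miR-182-iso libraries, adjusted p = 0.361) and 9.04 and 9.19 with miR-182-iso. The miR-182-iso values were the lowest of all, a difference of -1.20 (adjusted p = 0.00644) that was lost without either library (adjusted p 0.0568 to 0.0633). VPS4A, an ATPase that dismantles ESCRT-III, had 9.76 and 9.31 with miR-23b, against 8.24 to 9.13 elsewhere, a difference of 0.83 (adjusted p = 0.0431) lost in 6 fits and without the miR-182-iso pair (0.85, adjusted p = 0.0562). VPS4B and VPS37D were called in no comparison, and both VPS28 probes, for another ESCRT-I subunit, were called higher with miR-27a: by 0.64, except without miR-27a replicate 1 (adjusted p = 0.0527), and by 0.37, in a call lost in 6 fits. Neither VPS28 probe was called without the miR-182-iso pair (adjusted p = 0.0513 and 0.102).

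Of the 13 probes for tethers of late endosomes and the Golgi, 7 were called higher with miR-182-iso, against 17.0% of all probes. With miR-27a 5 were called lower, against 15.1%. VPS16, a core subunit of HOPS and CORVET, had 8.73 and 9.44 with miR-182-iso, against 7.56 to 8.42 elsewhere (1.02, SE 0.18, adjusted p = 0.00272). VPS18, of the same core, had 8.83 and 8.96, inside the 7.58 to 8.97 of the others (0.72, SE 0.13, adjusted p = 0.00263). VPS33A, their Sec1/Munc18-type partner, had 8.64 and 8.83, against 7.70 to 8.39 (0.74, SE 0.15, adjusted p = 0.00418). These 3 core genes were each called, and each call was lost without miR-182-iso replicate 2 (adjusted p 0.0567 to 0.0817). VPS33B, a relative of VPS33A, had 8.20 and 8.77, against 7.47 to 8.09 (0.85, SE 0.12, adjusted p = 0.00106), and VPS8, of CORVET, had 8.53 and 8.55, against 7.62 to 8.39 (0.67, SE 0.11, adjusted p = 0.00214). Both of these held. VPS51 (0.33) and VPS52 (0.45), shared by GARP and EARP, completed the 7, and were lost without either miR-182-iso library.

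With miR-27a, VPS18 had 7.89, 7.74 and 7.58, below all other libraries (8.02 to 8.97), a difference of -0.82 (SE 0.11, adjusted p = 0.00127). VPS16 had 7.83, 7.65 and 7.56, which overlaps 1 miR-17-5p-iso library, a difference of -0.84 (SE 0.16, adjusted p = 0.0046). Both held, and both were called without the miR-182-iso libraries, at -0.66 and -0.57 (adjusted p = 0.0118 and 0.0242). VPS33B (-0.45), VPS52 (-0.36) and VPS51 (-0.34) were lower too, and none of these 3 was called without the miR-182-iso libraries (adjusted p 0.103 to 0.20). VPS18 was called higher in both pull-downs of the miR-17-5p family, by 0.49 (canonical) and 0.47 (isomiR), in calls lost in 5 and 7 of the 13 fits. VPS11 and VPS39, of the same complexes, and VPS50 had dim probes and were called in no comparison.

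The remaining VPS genes are of unlike function. VPS72, which is not a transport protein but a chromatin factor that handles the histone variant H2A.Z, had 10.41 and 10.57 with miR-182-iso, against 8.02 to 9.02 elsewhere. Both libraries were far above the others, and the difference of 2.02 (SE 0.13, adjusted p = 1.11e-05) held. With miR-27a it had 8.35, 8.10 and 8.02, below every other library, a difference of -1.09 (adjusted p = 0.000406) and of -0.47 without the miR-182-iso libraries (adjusted p = 0.034). Its lower call with miR-17-5p-iso (-0.70, adjusted p = 0.00493) was not made without them (-0.01, adjusted p = 0.972). VPS45, a Sec1/Munc18 protein of endosomal fusion, had 9.93, 9.58 and 10.26 with miR-17-5p, against 8.73 to 9.60, overlapping at 1 miR-182-iso library. Its difference of 0.89 (SE 0.19, adjusted p = 0.0169) was lost without miR-17-5p replicate 1 or 3 (adjusted p 0.0537 to 0.091). The 3 probes of VPS13A, a lipid transfer protein, were called in no comparison.

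The direct comparison of miR-17-5p with miR-17-5p-iso asks which members distinguish a canonical miRNA from an isomiR shifted by 1 base. By limma, 4 members (3.33%) were called lower with miR-17-5p, against 0.783% of all probes, and 0 higher, against 0.325%. At an unadjusted p under 0.05, 7 members (5.83%) were lower, against 7.19% of all probes, and 15 (12.5%) higher, against 6.1%. The 4 were both VPS26A probes, TRAPPC11 probe ILMN_2338921 and SEC24B probe ILMN_1735148. TRAPPC11, which is found in the TRAPPIII complex, had 9.72, 9.41 and 9.23 with miR-17-5p, against 10.77, 10.25 and 10.37 with miR-17-5p-iso. The groups did not overlap, with a difference of -1.01 (SE 0.16, adjusted p = 0.0243) that was lost in 5 of the 13 fits (adjusted p 0.0503 to 0.0942). The other TRAPPC11 probes, ILMN_1752086 and ILMN_1666827, had -0.37 and -0.05 and were not called. SEC24B had 7.71, 7.46 and 7.54 with miR-17-5p, close to the floor, against 8.13, 8.18 and 8.35 with miR-17-5p-iso. These did not overlap either, and the difference of -0.65 (SE 0.10, adjusted p = 0.0158) was lost without replicate 3 of either group (adjusted p 0.0511 to 0.0804). The same SEC24B probe was called higher with miR-17-5p-iso than with the unrelated duplexes (0.46, adjusted p = 0.00739), except without miR-17-5p-iso replicate 3 (adjusted p = 0.0505). The other SEC24B probes, ILMN_2334303 and ILMN_1745469, both had 0.03 in the direct comparison. They were called neither there nor with miR-17-5p-iso.

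TRAPPC11 also had a strong pattern among the unrelated duplexes. With miR-182-iso probe ILMN_2338921 had 8.68 and 8.79, below the 9.23 to 10.77 of all others, a difference of -1.61 (SE 0.16, adjusted p = 0.000148) that held. With miR-23b it had 10.76 and 10.60 (0.98, adjusted p = 0.00869) and with miR-27a 10.56, 10.47 and 10.20 (0.62, adjusted p = 0.00907), both called higher. Without the miR-182-iso libraries these were 0.50 (adjusted p = 0.123) and 0.09 (adjusted p = 0.743), and the miR-17-5p-iso call of 0.52 became -0.08 (adjusted p = 0.797).

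Genes with several probes gave a check within the array, since probes may read different transcripts of a gene. Of 20 such genes, the probes had unequal calls in 2 with miR-17-5p, 4 with miR-17-5p-iso, 10 with miR-27a, 2 with miR-23b, 8 with miR-182-iso and 2 in the direct comparison, and no gene had opposite calls. In VPS26A both probes were called with miR-17-5p-iso. The 3 SEC22C probes were all called lower with miR-182-iso, at -0.57, -0.69 and -0.82, and 1 of them was called higher with miR-27a (0.69). That call was made in all 13 fits that leave out 1 library, but not without both miR-182-iso libraries (0.47, adjusted p = 0.071). With miR-182-iso, the call at -0.82 was lost without miR-182-iso replicate 2 (adjusted p = 0.128), that at -0.69 without either miR-182-iso library and that at -0.57 in 7 fits. In TRAPPC11, the other 2 probes differed from the unrelated duplexes by -0.22 and 0.25 with miR-182-iso, where probe ILMN_2338921 had -1.61. VPS41, a HOPS subunit, had -1.06 by probe ILMN_2383107 and 0.45 by probe ILMN_1703379 with miR-182-iso, and 0.85 and -0.02 with miR-27a. Its call with miR-182-iso was lost without miR-182-iso replicate 2 (adjusted p = 0.151), and that with miR-27a without miR-27a replicate 1 (adjusted p = 0.0634) or without the miR-182-iso pair (0.55, adjusted p = 0.094). The second VPS37A probe had -0.37 with miR-182-iso and 0.38 with miR-27a, in the same directions as the first but not called. TRAPPC2L had -0.62, called, and 0.24 with miR-27a, and TRAPPC13 had 0.42, called, and -0.04, from a probe near the floor. The TRAPPC2L call was lost in 6 fits and without the miR-182-iso pair (-0.56, adjusted p = 0.0909), and that of TRAPPC13 without miR-27a replicate 2 (adjusted p = 0.0615).

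**Figure D5:**
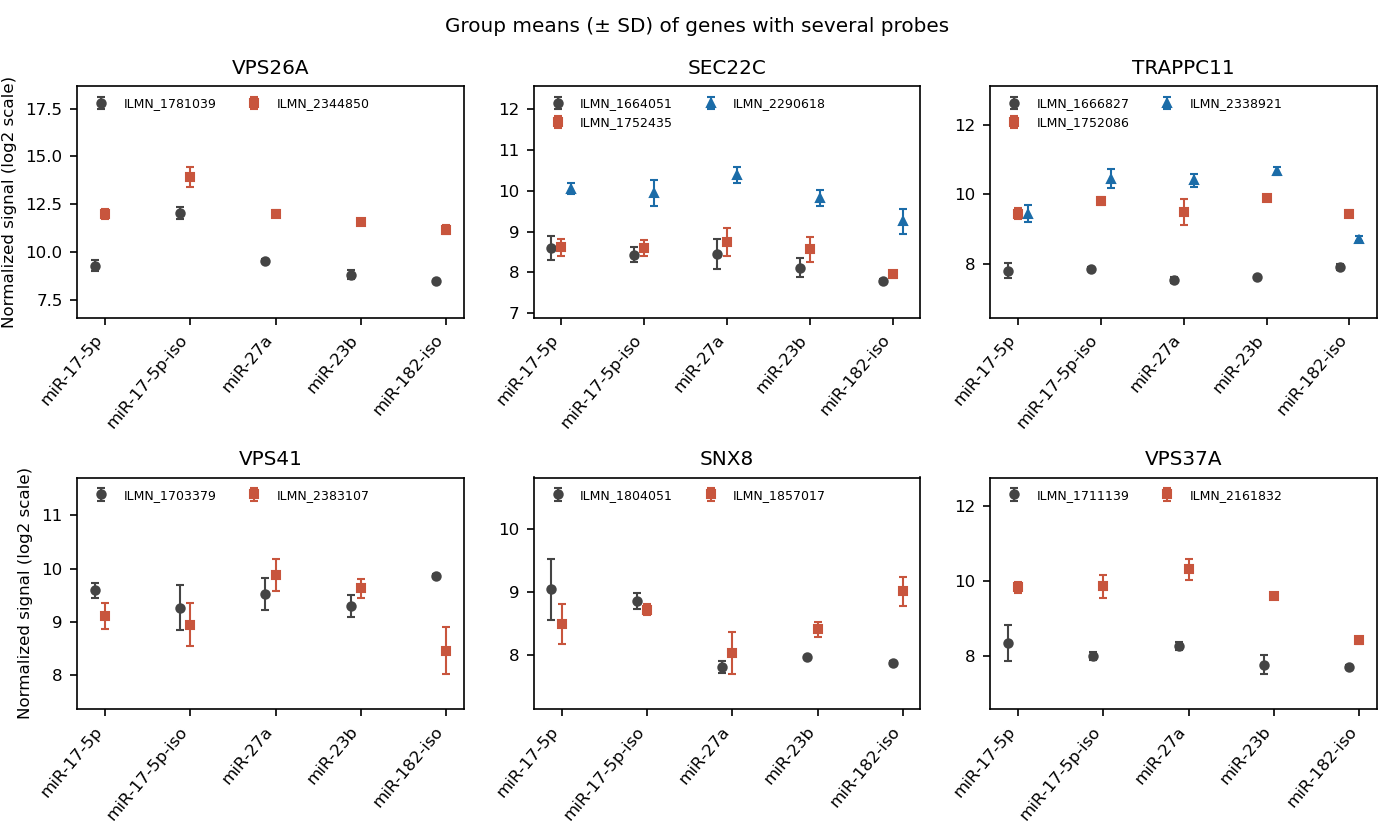
Group means of normalized signal (log2 scale, bars are SD over 3 or 2 libraries) for each probe of 6 genes with several probes: VPS26A, SEC22C, TRAPPC11, VPS41, SNX8 and VPS37A. Both VPS26A probes peak with miR-17-5p-iso, whereas the 3 TRAPPC11 probes part with miR-182-iso, where ILMN_2338921 alone was called lower.

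Other genes of the same transport steps came from a list of 101 partners, of which 83 genes were measured by 111 probes. With miR-17-5p, 6 of these probes (5.41%) were called higher and 10 (9.01%) lower, against 5.34% and 4.51% of all probes. With miR-17-5p-iso they were 5 (4.5%) and 6 (5.41%), against 5.11% and 2.74%. With miR-27a they were 17 (15.3%) and 25 (22.5%), against 15.2% and 15.1%. With miR-23b they were 11 (9.91%) and 4 (3.6%), against 5.91% and 3.0%, and with miR-182-iso 26 (23.4%) and 12 (10.8%), against 17.0% and 15.4%. The higher calls of both miR-17-5p duplexes and of miR-27a and the lower calls of miR-23b were thus close to the share of all probes. The F test called 50 of the 111 (45.0%), near the 42.2% of all probes. Partner calls were not followed through the fits that leave out libraries, so none of them is said to hold. TFG, which organizes COPII carriers at ER exit sites, was higher with miR-17-5p by 1.46 and 1.35 (2 probes, SE 0.19 and 0.17, adjusted p = 0.00195 and 0.00165) and with miR-17-5p-iso by 1.44 and 1.48 (adjusted p = 0.00152 and 0.000665). SNF8, the third ESCRT-II subunit, was higher with miR-23b (1.51, SE 0.36, adjusted p = 0.0341) and lower with miR-182-iso (-1.90, SE 0.36, adjusted p = 0.0037). The miR-182-iso libraries are part of that miR-23b comparator. COG7, of a Golgi tether, was higher with miR-27a (1.27, SE 0.11, adjusted p = 0.000169). CHMP2A, of ESCRT-III, was higher with miR-182-iso by 1.57 for its probe with the largest difference (SE 0.18, adjusted p = 0.000342). Its other called probes had much smaller differences, 0.38 and 0.31 (SE 0.07 and 0.08, adjusted p = 0.00222 and 0.0134). In the direct comparison 2 partner probes (1.8%) were called higher with miR-17-5p, against 0.325% of all probes, and 1 (0.901%) lower, against 0.783%. BECN1, of an endosomal lipid kinase complex, was lower with miR-17-5p than with miR-17-5p-iso (-0.87, SE 0.17, adjusted p = 0.0417). KDELR3, a receptor that retrieves ER proteins (0.71, SE 0.14, adjusted p = 0.045), and SAR1B, a GTPase that starts COPII assembly (0.38, SE 0.07, adjusted p = 0.0439), were higher. Another SAR1B probe was not called there.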

How the data were processed

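Captured mRNA was profiled on Illumina HT-12 bead arrays. The authors background-adjusted, variance-stabilized and robust-spline-normalized the signals with lumi 2.2.1 before they deposited the log2 values, and kept probes with a detection p under 0.01 in all mock-transfected controls; dim probes are therefore compressed, and a probe that was not in the table is not analysed here. The study used more than 1 version of the array, and the sources used here do not give the version per library. Whether the libraries used here differ in version is therefore not known. A table of non-normalized signals was not used, because its 26 columns match no sample by name.

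Gene symbols come from the platform annotation; all 120 member probes matched RefSeq by gene ID. Differences were fitted with limma 3.58.1 (lmFit, contrasts, eBayes) in R 4.3.3, as 1 model of 5 groups, two-sided, with p-values adjusted over all 12007 probes by the Benjamini-Hochberg method. Python 3.11.15 with pandas 2.3.3, numpy 2.4.6 and matplotlib 3.10.9 made the tables and figures. The fit was tested on simulated data.

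Members, lists and the rule for named genes were chosen with earlier results of these data known. Named in each comparison are the 8 called members with the largest positive and the 5 with the largest negative difference, genes whose probes had unequal calls, the 10 probes with the widest range, TRAPPC1 and TMED9, and at most 3 partner genes per comparison. Other members are named to account for their role group, and were chosen after their values were seen. Alternatives tried were all other pull-downs as comparator, quantile normalization, a block on the replicate number, an adjusted p under 0.01, one-sided tests, the brighter probes only, 1 probe per gene, each library left out, and both miR-182-iso libraries left out.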

Additional observations from a re-analysis of the deposited data

How the results depend on the processing

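Quantile normalization moved none of the 119 differences given for named members across the threshold, and one-sided tests none of the 66 tested that way. The counts that follow are of members only. The share of all probes called also changes with the setting and is not given here. A changed count is therefore not a result about the members. Without both miR-182-iso libraries the members called numbered 11 higher and 10 lower with miR-27a, 21 and 12 with miR-17-5p, 3 lower with miR-23b and 42 for any difference. Differences then turned for TMED9 with miR-23b (0.36), miR-17-5p (0.04) and the miR-17-5p isomiR (0.20) and for TRAPPC11 with miR-17-5p-iso (-0.08). At an adjusted p under 0.01, higher and lower calls numbered 6 and 2 with miR-17-5p, 5 and 2 with the miR-17-5p isomiR, 12 and 11 with miR-27a and 1 and 2 with miR-23b, with 2 lower in the direct comparison and 36 for any difference. With all other pull-downs as comparator, the lower calls with miR-17-5p-iso numbered 3. On the brighter probes alone, 15 were lower with miR-27a, 13 higher with miR-182-iso and 1 higher in the direct comparison, and with 1 probe per gene the direct comparison gave 1 higher and 2 lower; fewer probes are counted there by construction. With each library left out in turn, higher calls ran from 6 to 16 with miR-17-5p, 5 to 12 with the miR-17-5p isomiR, 16 to 26 with miR-27a, 0 to 9 with miR-23b, 9 to 26 with miR-182-iso and 0 to 3 in the direct comparison. Lower calls ran from 3 to 10, 2 to 9, 13 to 30, 0 to 11, 9 to 24 and 2 to 5 in the same order, and members with any difference from 50 to 77. No named difference turned in these fits. The cause of these shifts was not tested. Among the calls picked by the naming rule, the others kept their direction under the alternatives run. Outside these, some lower calls of SEC61A2 changed sign without both miR-182-iso libraries, as given above.

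Replicate numbers were not taken as pairs, since not every pair of libraries with the same number correlated above 0.1. Over 23 such pairs the correlation of deviations from the group means had a median of 0.14 (-0.334 to 0.631), and over 44 pairs with different numbers -0.0799 (-0.605 to 0.516). Deviations within a group cancel by construction, so the same-number and different-number pairs are not independent. For a group of 2 libraries their values mirror each other. The 10 same-number pairs with a miR-17-5p library gave -0.334 to 0.335 and the 13 others 0.0568 to 0.631, a hint from the data of shared deviations outside that group. There too, miR-17-5p-iso replicate 3 correlated better with miR-27a replicate 2 (0.215) than with its own number (0.103). With the replicate block, the lower calls with miR-17-5p-iso numbered 3 in place of 8, and the other member counts stayed within 1.5 times. Few arrays per group and dim probes near the floor limit which differences could be detected.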
